A study of Homo sapiens with 12 samples.

Results

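The comparison described here set AC16 cells exposed to doxorubicin for 4 days against control AC16 cells, over every gene that passed a filter on low counts. That filter left 17320 of the 60607 genes in the deposited table, and genes of the cytokine, cholesterol and ATF4 groups are left aside in what follows. AC16 is a human line made by fusing ventricular heart cells of adults with transformed fibroblasts, and the labels give its cell type as cardiomyocytes and its genotype as wild type (WT), so the results concern a single line. The 3 control libraries came from cells with DMEM as their treatment, and the 3 day 4 libraries from cells given 0.1 µM doxorubicin for 96 hours. The series also holds 3 libraries each from cells given the same dose for 48 hours and for a longest exposure, which the titles put at 112 hours and the design text at 6 days. Every title carries day 6, and the labels do not say whether an exposure ended at harvest, so cells exposed for 4 days may have spent time without the drug before RNA was taken. The repeats of a group are not stated to be separate cultures, and p-values here reflect spread among libraries that may be only technical.

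Doxorubicin is an anthracycline that slips between DNA bases and traps topoisomerase II on broken DNA. The breaks activate p53, a transcription factor that halts the cell cycle and can start cell death, and cells that survive can enter a lasting arrest in which the nuclear envelope, the secreted matrix and inflammatory genes change. The drug is used against cancer and is known for damage to the heart, where topoisomerase II beta is the form present in muscle cells that no longer divide.

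Total counts were 14835743 to 17188805 in the control libraries and 16997530 to 18184315 at day 4, and 26261 to 27349 genes had a count in the controls against 28079 to 29650 at day 4. Mitochondrial genes took 6.01%, 8.26% and 6.75% of the counts in control replicates 1, 2 and 3, and 8.01% to 8.34% at day 4, so control replicate 2 stood apart from its group. Defining markers of heart muscle were near 0: over the 3 libraries of a group, TNNT2 had 12 counts in the control and 0 at day 4, MYH7 had 0 and 4, ACTC1 had 12 and 4, and MYL2 and MYH6 had 0 in both. Other markers had more counts at day 4, with 3 and 24 for ACTN2 and 1 and 17 for RYR2. The summed level of the 13 cardiomyocyte markers was 0.850 to 1.58 CPM in the controls and 1.44 to 2.03 at day 4. Only 2 of the 13, ACTN2 and PLN, passed the filter, so the cells are called AC16 cells and not cardiomyocytes below. The summed level of 15 fibroblast markers was 8414 to 9041 CPM in the controls and 10720 to 11250 at day 4, that of 10 leukocyte markers 5.74 to 8.26 and 11.7 to 15.7, and that of 10 endothelial markers 24.0 to 25.8 and 27.2 to 29.3. The higher fibroblast sum rested on VIM, vimentin, with 101897 counts over the controls and 247737 at day 4. Of 14 fibroblast markers tested 4 rose and 7 fell, and COL3A1 went from 44611 counts to 26780. Of 6 endothelial markers tested 3 rose and 3 fell, with a median log2 fold change of -0.76. KDR fell from 165 counts over the controls to 47 and VWF from 54 to 15. TEK rose from 833 to 1205 and TIE1 from 32 to 78. For epithelial markers the sums were 97.6 to 131 and 92.5 to 121, and for neuronal markers 44.4 to 49.2 and 44.7 to 48.2. CD3E, which defines T cells, had 0 counts in the control and 1 at day 4. In bulk RNA, fewer cells of a kind and less RNA per cell cannot be told apart.

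Genes named in what follows were picked by rules of size within the comparison or within a list, which take genes whose control and day 4 libraries do not overlap, so separation of the groups is no finding for them. A few genes outside those rules are marked as taken up after their values were seen, and a few of general interest were named in any case. Whether counting used strand is not given in the sources used here. Without strand, reads of a gene and of an overlapping gene on the opposite strand cannot be told apart. Besides the overlaps given with each gene, this touches MDM2 (the gene of carboxypeptidase M), TP53I3 (FAM228B), CDKN1A (DINOL), CDKN2A (CDKN2B-AS1), CCND1 (LTO1), CCNA2 (EXOSC9), KIF18A (METTL15), TOP2B (RARB), TNFRSF10B (RHOBTB2), IGFBP7 (POLR2B), SUN2 (GTPBP1), TUBB2B (PSMG4), PSME2 (RNF31), F8 (FUNDC2), ACADVL (DLG4) and MIR34AHG (LNCTAM34A), and, through their own antisense or divergent RNAs, P4HA2, MYLK, VIM, PDK1, NR4A1, ID2, TMPO, GATA6, GARS1, H1-10 and MYOCD (ARHGAP44-AS1).

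Levels below are CPM scaled by library size and composition, given in the order of replicates 1, 2 and 3. A gene was called higher or lower where its Benjamini-Hochberg adjusted p over all 17320 genes was under 0.05 in edgeR's quasi-likelihood test, and log2 fold changes are day 4 minus control, ± SE. By that rule 3249 genes (18.8%) were higher at day 4 and 3072 (17.7%) were lower, 36.5% in all, and the median log2 fold change over all genes was -0.003. The shares of 18.8% and 17.7% are the background for every count of list or family members below. Where a list lies near them, its counts say nothing particular about that list. At least 2-fold changes were fewer, with 958 genes (5.53%) higher and 618 (3.57%) lower. The 3 control and 3 day 4 values did not overlap for 44.6% of the genes. When libraries were scaled by their totals without TMM, 2913 were higher and 3458 lower, with a median over all genes of -0.039, so small shifts shared by many genes are read against that scaling. Protein-coding genes were called higher in 20.8% and lower in 20.6% of cases, and long non-coding RNAs in 13.8% and 8.66%.

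**Figure D1:**
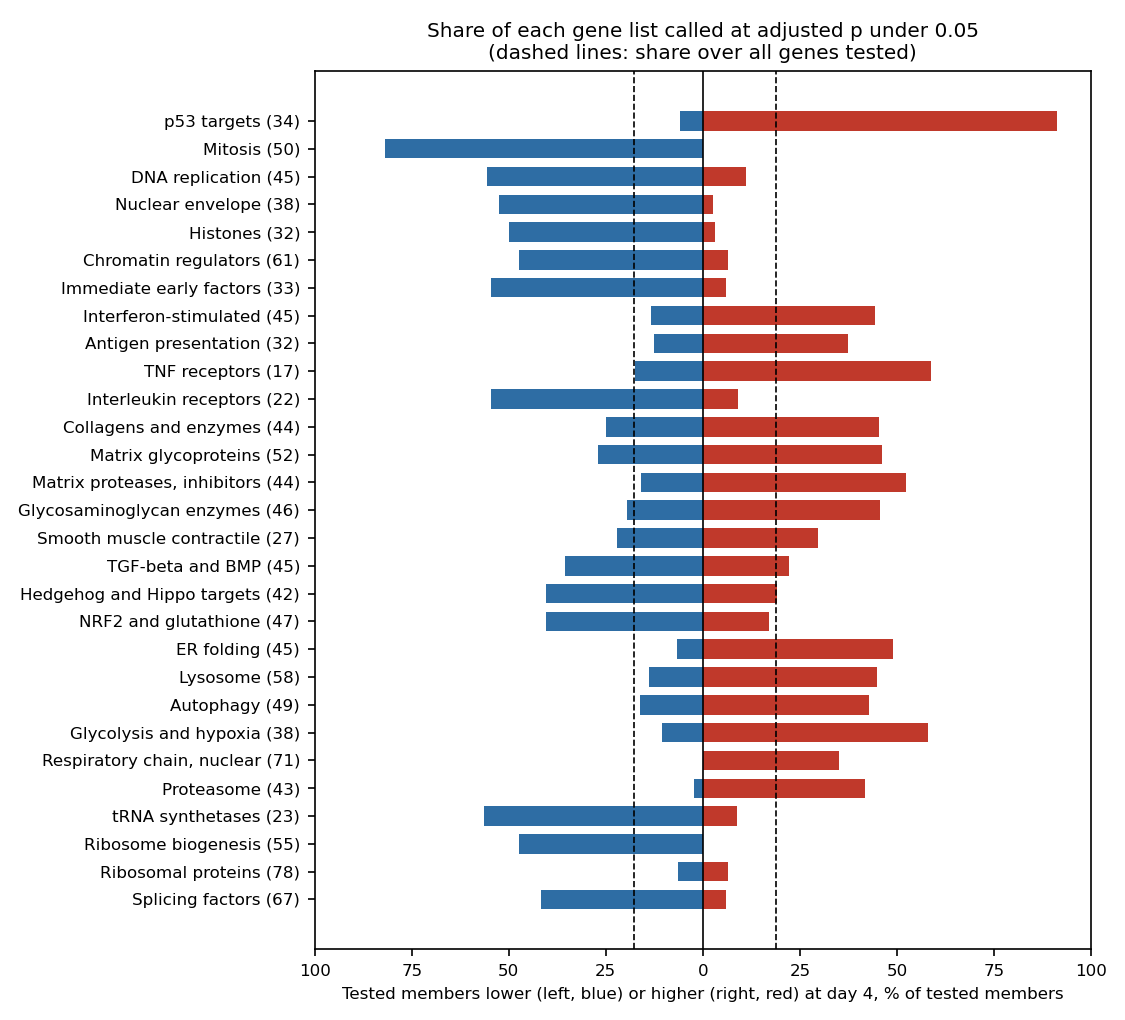
Share of the tested members of 29 gene groups that were called lower (left, blue) or higher (right, red) at day 4 at an adjusted p under 0.05, in % of tested members, with the number tested in brackets after each name. Dashed lines mark the shares over all 17320 genes, 17.7% lower and 18.8% higher. p53 targets reach furthest to the right and mitosis genes furthest to the left.

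The 12 largest rises and 12 largest falls given here are those among genes outside the groups left aside that have an ordinary symbol (no clone, open reading frame, LINC, antisense or host-gene name), 10 CPM or more on average in whichever group is higher, and groups that do not overlap. Non-coding genes such as MIR3142HG were ranked apart from them. The rises were led by genes that are scarcely expressed in control AC16 cells. SERPINA9 (chr14:94462717-94479689), a serine protease inhibitor of germinal centre B cells, was at 0.227, 0.263 and 0.330 CPM in the controls and at 10.2, 10.7 and 23.3 CPM at day 4 (log2 fold change 5.73 ± 0.46, adjusted p = 1.26e-07). TRIM55 (chr8:66126896-66175487), a muscle RING-finger protein that sits on sarcomeres and microtubules, went from 0.227, 0.328 and 0.0661 CPM to 10.8, 8.82 and 12.1 CPM (log2 fold change 5.62 ± 0.32, adjusted p = 7.29e-13). ESM1 (chr5:54977864-55022671), which encodes the secreted proteoglycan endocan, measured 2.78, 1.77 and 1.78 CPM in the controls and 43.4, 44.8 and 58.3 CPM after the drug (log2 fold change 4.51 ± 0.19, adjusted p = 4.43e-15). For each of these 3 genes the lowest day 4 library was above the highest control library, as the rule of choice requires. PTCHD4 (chr6:47878028-48068689), a patched-domain protein gene that p53 activates, rose from 1.36, 0.263 and 0.925 CPM to 19.1, 21.4 and 16.8 CPM (log2 fold change 4.44 ± 0.22, adjusted p = 6.39e-14). CLCA2 (chr1:86424086-86456558), a chloride channel accessory protein and another p53 target, stood at 3.29, 3.55 and 3.04 CPM and then at 47.7, 52.8 and 48.5 CPM (log2 fold change 3.91 ± 0.12, adjusted p = 3.98e-18). C1QTNF1 (chr17:79022814-79049788), a secreted relative of complement C1q, was found at 1.53, 0.591 and 0.859 CPM and at 15.9, 15.4 and 14.8 CPM (log2 fold change 3.91 ± 0.24, adjusted p = 6.58e-12). Replicates of each group lay close together for CLCA2, while the low control values of PTCHD4 and C1QTNF1 varied more in proportion than their day 4 values. GDNF (chr5:37812677-37839686), a neurotrophic factor that signals through the RET receptor, was at 2.04, 2.17 and 1.78 CPM and reached 29.4, 24.8 and 34.2 CPM (log2 fold change 3.88 ± 0.15, adjusted p = 5.19e-16), and its antisense gene GDNF-AS1 overlaps it.

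Others of the 12 largest rises acted in signalling, attachment and contraction. CYFIP2 (chr5:157266079-157395595), a part of the complex that drives actin branching and a p53 target, rose from 1.99, 2.69 and 1.78 CPM to 23.6, 24.8 and 26.1 CPM (log2 fold change 3.53 ± 0.13, adjusted p = 3.56e-16), and ADAM19 overlaps it on the opposite strand. LAMB3 (chr1:209614870-209652466), the beta 3 chain of laminin-332, which anchors epithelia to their basement membrane, was at 15.2, 16.2 and 11.6 CPM and then at 136, 147 and 155 CPM (log2 fold change 3.35 ± 0.11, adjusted p = 1.77e-17). TMEM158 (chr3:45224466-45226278), a membrane protein induced in Ras-driven senescence, went from 15.4, 16.1 and 10.9 CPM to 128, 134 and 164 CPM (3.33 ± 0.13). INPP5D (chr2:233059967-233207903), the lipid phosphatase SHIP1 of blood cells, was measured at 3.35, 2.10 and 2.18 CPM and at 25.6, 28.4 and 20.04 CPM (3.26 ± 0.17). Of the 10 leukocyte markers 4 were tested, and 1 rose, 1 fell and 2 were not called. CD68, a lysosomal protein of macrophages that other cells also make, rose from 122 counts in the 3 controls to 396 at day 4. CD14, the monocyte receptor for lipopolysaccharide, fell from 68 counts to 25 (log2 fold change -1.57, adjusted p 0.00871, and 0.0641 without day 4 replicate 1). PTPRC, which encodes CD45, had 115 and 162 counts and CSF1R, a receptor of macrophages, 49 and 83, and neither was called. The summed level of the 10 markers was 5.74 to 8.26 CPM in the controls and 11.7 to 15.7 CPM at day 4, and their part in the INPP5D value was not tested. ACTA2 (chr10:88935074-88991339), the smooth muscle actin of myofibroblasts, rose from 8.63, 12.4 and 9.25 CPM to 95.8, 95.8 and 92.7 CPM (log2 fold change 3.23 ± 0.11, adjusted p = 3.14e-17), and FAS, itself higher at day 4, overlaps it on the other strand.

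The 12 largest falls began with transcription factors and growth factors. HES1 (chr3:194136145-194138732), the classic Notch-induced repressor, was at 16.5, 20.2 and 17.9 CPM in the controls and at 1.36, 2.04 and 3.07 CPM at day 4 (log2 fold change -3.07 ± 0.20, adjusted p = 1.17e-11). PDGFD (chr11:103907186-104164379), a ligand of the PDGF beta receptor, dropped from 20.2, 13.8 and 18.2 CPM to 2.54, 2.16 and 1.76 CPM (log2 fold change -3.01 ± 0.18, adjusted p = 1.92e-12). OLFML3 (chr1:113979391-114035572), a secreted olfactomedin-like scaffold protein, went from 11.5, 15.1 and 14.8 CPM to 2.38, 1.92 and 1.92 CPM (log2 fold change -2.73 ± 0.18, adjusted p = 5.83e-12). All day 4 libraries of these 3 genes were under every control library, which the rule of choice requires. FOS (chr14:75278774-75282230), the partner of JUN in the AP-1 factor, stood at 69.9, 86.3 and 66.5 CPM and then at 11.2, 12.4 and 11.97 CPM (log2 fold change -2.65 ± 0.12, adjusted p = 5.15e-15). IL1RL1 (chr2:102311502-102352037), the receptor of interleukin-33, fell from 14.8, 11.3 and 8.65 CPM to 1.58, 3.00 and 1.21 CPM (log2 fold change -2.60 ± 0.26, adjusted p = 3.06e-08). The enzymes of this set handle steroids and foreign compounds. AKR1C3 (chr10:5035354-5107686), an aldo-keto reductase of steroids and prostaglandins that also reduces doxorubicin, was measured at 46.1, 47.3 and 52.7 CPM and at 9.56, 7.74 and 10.3 CPM (-2.40 ± 0.12). CYP1B1 (chr2:38066973-38109902), a cytochrome P450 of oestrogens and polycyclic hydrocarbons, fell from 179.7, 116 and 135 CPM to 31.8, 32.8 and 28.5 CPM (-2.21 ± 0.12), with RMDN2 and CYP1B1-AS1 across from it.

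EFEMP1 (chr2:55865967-55924139), the matrix protein fibulin-3, was at 98.5, 108 and 101 CPM and then at 27.0, 27.7 and 16.2 CPM (-2.12 ± 0.14). ADM2 (chr22:50481556-50486440), a vasodilating peptide of the calcitonin family, fell from 10.6, 13.6 and 12.2 CPM to 2.66, 3.06 and 3.02 CPM (-2.05 ± 0.15). EGR1 (chr5:138465490-138469315), a zinc finger factor induced within minutes by growth factors, went from 660.2, 725 and 594 CPM to 134, 142 and 201 CPM (log2 fold change -2.05 ± 0.13, adjusted p = 5.12e-10). The gap between the groups in all of them follows from the rule of choice and is no finding. SLC12A8 (chr3:125082636-125212864), a transporter of the cation-chloride family, measured 14.2, 13.4 and 14.9 CPM and then 3.00, 3.84 and 3.51 CPM (-2.04 ± 0.15). ERBB3 (chr12:56076799-56103505), the neuregulin receptor that pairs with ERBB2, fell from 64.3, 67.2 and 66.9 CPM to 15.3, 20.4 and 13.7 CPM (log2 fold change -2.01 ± 0.15, adjusted p = 6.15e-10). Among falls with at least 100 CPM in the controls the list continued with COL11A1, a minor fibrillar collagen, at -1.96, and with NNMT, which methylates nicotinamide, at -1.94 on the log2 scale.

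**Figure D2:**
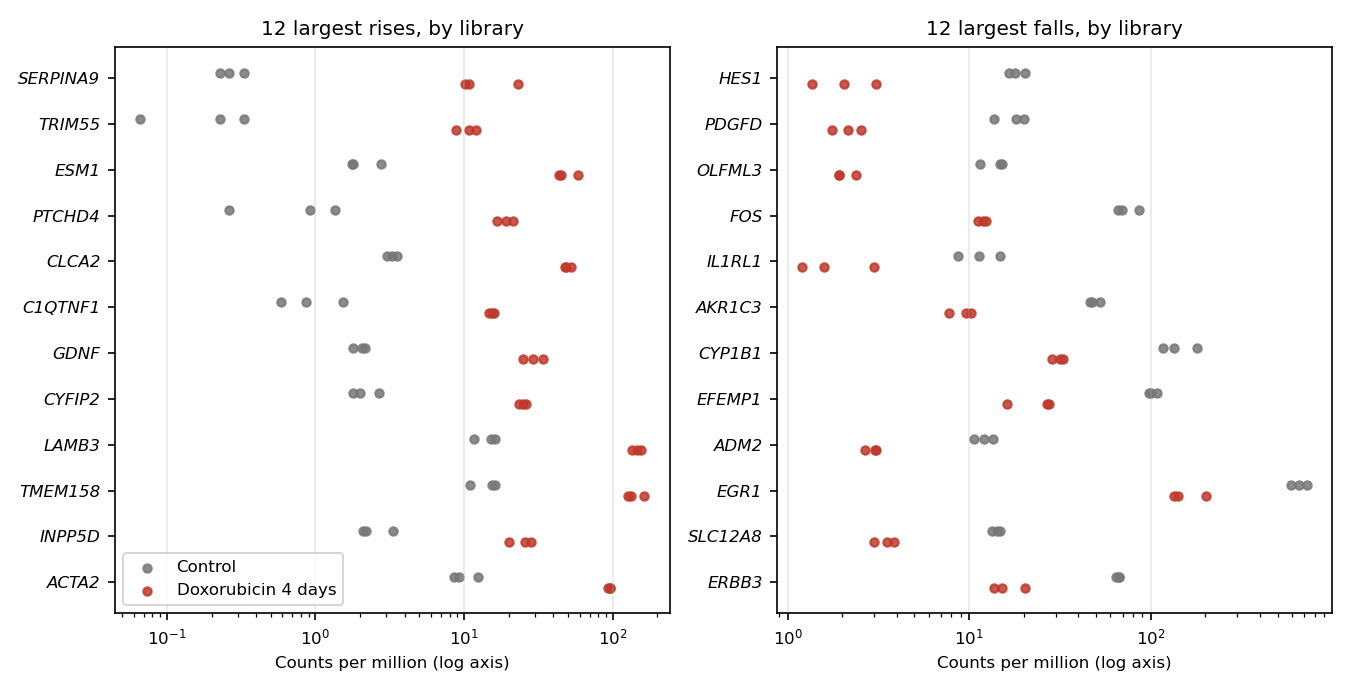
Scaled counts (CPM) on a log axis in the 3 control (grey) and 3 day 4 (red) libraries for the 12 largest rises (left) and 12 largest falls (right) under the limits on symbol, level and gene group given above, 1 point per library. For each of the 24 genes the points of the groups lie apart, which the rule that picked them requires.

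Genes of the p53 response, which p53 switches on at their promoters or first introns, held the highest share of rises: 31 of 34 tested members were higher and 2 lower, with a median log2 fold change of 1.87 where all genes had -0.003. CDKN1A (chr6:36676460-36687339), which encodes the cell-cycle inhibitor p21, was at 201, 227 and 165 CPM and then at 1404, 1527 and 1430.5 CPM (log2 fold change 2.88 ± 0.11, adjusted p = 1.69e-16). MDM2, the ubiquitin ligase that destroys p53, rose from 171, 145 and 169 CPM to 1051, 1093 and 953 CPM (2.67 ± 0.098). TP53I3, a quinone oxidoreductase, went from 6.81, 8.21 and 6.21 CPM to 51.9, 47.6 and 47.7 CPM (2.79 ± 0.11). The 2 members called lower were taken up after their values were seen. They were PMAIP1, the death gene NOXA, at -0.22 ± 0.085 and PLK2, a polo-like kinase, at -0.20 ± 0.074, both small, and neither was called without control replicate 1, control replicate 3, day 4 replicate 2 or day 4 replicate 3.

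Inhibitors and partners of the cyclin-dependent kinases moved both ways, 6 of 13 tested members higher and 5 lower (3 lower without day 4 replicate 1). CCND1, which encodes cyclin D1 of the G1 phase, rose from 183, 186 and 174 CPM to 755, 742 and 796 CPM (2.08 ± 0.075). CDKN2B, the inhibitor p15, fell from 101, 91.7 and 94.2 CPM to 37.7, 39.2 and 32.2 CPM (-1.40 ± 0.098). CDKN1B, the inhibitor p27, fell by 0.74. CDKN2A, the locus of p16 and ARF, was at 106, 139 and 113 CPM and then at 76.2, 87.7 and 90.8 CPM (log2 fold change -0.49 ± 0.14, adjusted p = 0.0142), and the call was lost without control replicate 2 (adjusted p = 0.0984) or day 4 replicate 1 (0.0528).

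Genes that build the spindle and carry cells through mitosis were largely lower, with 41 of 50 tested members lower, 0 higher and a median of -0.56. The 0 holds in edgeR, in DESeq2 and at an unadjusted p under 0.05, as do the counts of 0 given below for ribosome biogenesis, the respiratory chain, mitochondrial genes and sarcomere genes. KIF20A (chr5:138178719-138187715), a kinesin of cytokinesis, went from 145, 167 and 165 CPM to 54.2, 53.2 and 54.0 CPM (log2 fold change -1.56 ± 0.087, adjusted p = 4.38e-13), and CDC23 and BRD8 overlap it on the opposite strand. CCNA2, cyclin A2, fell from 158, 149 and 149 CPM to 76.9, 78.1 and 72.5 CPM (-1.002 ± 0.074). CCNB1 (chr5:69167010-69178245), cyclin B1, fell from 198, 233 and 213 CPM to 110.4, 112 and 117 CPM (-0.92 ± 0.076). Most of these falls were moderate: 4 of the 50 were lower by at least 2-fold. Over the whole kinesin family, the motors that walk on microtubules, 18 of 31 tested members were lower and 3 higher, and KIF18A, which trims spindle microtubules, fell by 0.76. TOP2A, the topoisomerase II of dividing cells and a target of the drug, was at 997, 926 and 960.3 CPM and then at 685, 688 and 627 CPM (-0.53 ± 0.072). TOP2B, the form also present in cells that no longer divide, was at 234, 197 and 231 CPM and 201, 209 and 179.9 CPM (log2 fold change -0.17 ± 0.082, adjusted p = 0.118), and it was called lower without control replicate 2 (adjusted p = 0.0156).

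The promoters of 2 mitosis genes are printed because they carry pairs of the CCAAT box, the letters bound by NF-Y, that are common in genes of this phase. Each line gives the 170 bases before the gene's RefSeq start, 5′ to 3′ on the gene's strand, from RefSeq on GRCh38.p14, KIF20A at chr5:138178942-138179111 (plus strand) and CCNB1 at chr5:69166980-69167149 (plus strand). Capitals mark CCAAT or, on the other strand, ATTGG.
KIF20A: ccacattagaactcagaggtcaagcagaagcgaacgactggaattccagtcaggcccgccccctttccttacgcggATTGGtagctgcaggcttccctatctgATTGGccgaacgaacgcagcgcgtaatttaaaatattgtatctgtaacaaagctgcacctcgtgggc
CCNB1: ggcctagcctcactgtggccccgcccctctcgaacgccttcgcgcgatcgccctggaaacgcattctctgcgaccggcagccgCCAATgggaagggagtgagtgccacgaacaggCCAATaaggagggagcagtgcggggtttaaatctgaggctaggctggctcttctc
Of the 43 tested mitosis genes with a promoter in the table, 30 (69.8%) held CCAAT on either strand within 250 bases before and 50 after the start, against 36.4% of the promoters of 11725 tested genes. The letters TTTGAA, the core of the cell cycle homology region, were in 31 of the 43 (72.1%) against 10.2%. Members that fell held CCAAT in 24 of 36 cases (66.7%), and those not called in 6 of 7 (85.7%). For the p53 list the pattern of CATG, 6 further bases and CATG was in 1 of 27 promoters (3.7%) against 0.222% of all.

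DNA replication genes, which copy the genome in S phase, were lower in 25 of 45 tested cases and higher in 5 (2 without control replicate 3 or day 4 replicate 1), with a median of -0.23. MCM6, part of the helicase that opens replication forks, fell from 168, 164 and 179 CPM to 79.5, 79.7 and 71.3 CPM (-1.15 ± 0.090). POLA1, the catalytic part of the complex of polymerase alpha and primase, went from 113, 100.2 and 111 CPM to 61.4, 68.8 and 60.5 CPM (-0.77 ± 0.081). UHRF1, which carries DNA methylation through replication, fell by 0.83. Nucleotide synthesis moved unevenly: 10 of 34 tested members fell and 4 rose (2 rose without control replicate 1 or day 4 replicate 2). RRM2B, the ribonucleotide reductase subunit that p53 induces, rose from 63.9, 45.8 and 55.7 CPM to 265, 297 and 206 CPM (2.21 ± 0.13), while CAD, which starts pyrimidine synthesis, fell by 0.75.

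Repair genes moved in both directions. In excision and mismatch repair 11 of 39 tested members fell and 4 rose (7 rose without control replicate 2). DDB2, which recognises ultraviolet damage, rose from 23.1, 30.9 and 26.4 CPM to 94.2, 86.3 and 95.0 CPM (1.78 ± 0.097). XPC, the damage sensor of nucleotide excision repair, rose by 1.22, and LSM3 overlaps it on the opposite strand. Both belong to the p53 list as well. UNG, the glycosylase that removes uracil from DNA, fell from 78.6, 78.3 and 75.2 CPM to 41.1, 40.1 and 38.5 CPM (-0.96 ± 0.093), and EXO1, the nuclease of mismatch repair, fell by 0.70. Of the end joining and damage signalling genes, 10 of 30 fell and 1 rose. RNF168, a ubiquitin ligase that marks chromatin around breaks, fell from 109, 100.5 and 106 CPM to 68.0, 69.5 and 55.1 CPM (-0.71 ± 0.093).

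In the nuclear envelope and in chromatin falls outnumbered rises. Of 38 tested nuclear envelope genes 20 fell and 1 rose (2 without control replicate 1), with a median of -0.28. LMNB1 (chr5:126776623-126837020), which encodes lamin B1 and is known to be lost in senescent cells, went from 217, 232 and 224 CPM to 89.4, 85.5 and 78.9 CPM (log2 fold change -1.41 ± 0.084, adjusted p = 1.50e-12). LBR, the lamin B receptor, fell from 173, 133 and 169 CPM to 75.8, 77.6 and 74.2 CPM (-1.06 ± 0.092). TMPO, a lamina-associated protein gene, and SUN2, a part of the bridge to the cytoskeleton, fell by 0.69 and 0.72. Chromatin regulators fell in 29 of 61 cases and rose in 4 (2 without day 4 replicate 1). HMGB2, a DNA-bending protein of dividing cells, fell from 290.2, 346 and 301 CPM to 120.0, 105 and 109 CPM (-1.49 ± 0.081). HMGA2, an architectural protein of embryonic and transformed cells, rose against the group from 138, 112 and 129.9 CPM to 393, 411 and 399 CPM (1.66 ± 0.083). Its antisense RNA HMGA2-AS1 rose by 1.495 and overlaps it, so reads of the pair cannot be told apart without strand. HMGA1, a relative, rose by 0.87. Histone genes were lower in 16 of 32 tested cases and higher in 1, of 92 in the family. H1-10, a linker histone, fell by 1.38. Core histone genes have near-identical relatives and many of their transcripts lack a poly(A) tail, so their counts are uncertain.

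Immediate early factors, the transcription factors that growth signals switch on without new protein synthesis, fell in 18 of 33 tested cases and rose in 2, with a median of -0.47. Besides FOS and EGR1, NR4A1, an orphan nuclear receptor, fell from 13.2, 11.5 and 13.4 CPM to 3.17, 3.36 and 4.45 CPM (-1.79 ± 0.16). EGR3, a relative of EGR1 taken up after its values were seen, was at 3.18, 4.14 and 3.96 CPM and then at 0.905, 0.180 and 0.769 CPM (-2.57 ± 0.33). KLF10, a zinc finger gene induced by TGF-beta, went the other way, from 67.6, 61.4 and 66.0 CPM to 142, 144 and 137 CPM (1.12 ± 0.075). FOSL1, the AP-1 partner FRA1, also rose and is described with the genes that were highest at day 4.

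Smooth muscle contractile genes gave 8 rises and 6 falls among 27 tested members, with a median of 0.07. The rises were led by ACTA2 and by MYOCD, the coactivator of smooth and heart muscle genes, which went from 28.7, 24.6 and 30.3 CPM to 82.6, 80.8 and 89.1 CPM (1.60 ± 0.091). ACTG2, the actin of gut and bladder muscle, rose from 8.74, 7.49 and 8.85 CPM to 19.7, 15.7 and 18.7 CPM (1.11 ± 0.12). MYLK, the kinase that starts contraction, rose from 207, 187 and 191 CPM to 404, 445 and 376 CPM (1.07 ± 0.079). Other members of the same list fell, and DES, the intermediate filament of muscle taken up after its values were seen, dropped from 0.454, 1.51 and 1.52 CPM to 0.283, 0.360 and 0.110 CPM (-2.17 ± 0.52). TAGLN, the widely used marker SM22, also taken up after its values were seen, was not called, with a log2 fold change of 0.12 ± 0.086 and adjusted p = 0.312.

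A pair of promoters, 1 of an immediate early factor and 1 of a smooth muscle gene, shows the CArG box. This element, bound by serum response factor, was searched after the values were seen. The lines give the 170 bases before the RefSeq start on the gene's strand, from RefSeq on GRCh38.p14, EGR1 at chr5:138465309-138465478 (plus strand) and ACTG2 at chr2:73892838-73893007 (plus strand), with the CArG boxes in capitals.
EGR1: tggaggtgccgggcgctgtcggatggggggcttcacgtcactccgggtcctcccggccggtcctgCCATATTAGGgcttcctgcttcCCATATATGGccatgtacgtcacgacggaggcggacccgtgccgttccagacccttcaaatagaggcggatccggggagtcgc
ACTG2: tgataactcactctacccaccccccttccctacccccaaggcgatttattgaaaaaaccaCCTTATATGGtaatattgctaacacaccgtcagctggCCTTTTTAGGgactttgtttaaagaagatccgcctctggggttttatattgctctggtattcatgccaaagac
Each of the 2 promoters held 2 boxes, and the genes moved in opposite directions. The box was in 2 of 26 promoters of immediate early factors (7.69%), in 6 of 23 of the smooth muscle list (26.1%), and in 1.01% of all 11725. SRF, the gene of serum response factor, is in both lists, so its promoter is counted in both of these shares. Besides SRF, EGR1 was the only immediate early factor with the box.

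Interferon-stimulated genes, the antiviral genes that interferon switches on through STAT and IRF factors, were higher in 20 of 45 tested cases and lower in 6, with a median of 0.38. TRIM22 (chr11:5689689-5737089), an antiviral ubiquitin ligase that p53 also induces, rose from 11.5, 10.6 and 13.4 CPM to 108, 121 and 89.1 CPM (log2 fold change 3.17 ± 0.11, adjusted p = 1.26e-16). OAS2, which makes the second messenger that activates RNase L, went from 0.965, 0.657 and 0.859 CPM to 3.68, 4.14 and 2.47 CPM (2.03 ± 0.28). OASL, its relative without that activity, went from 1.14, 1.77 and 2.11 CPM to 6.22, 4.20 and 5.16 CPM (1.65 ± 0.21). At day 2 the 3 libraries of OASL had been at 64.7, 50.7 and 53.6 CPM, far above day 4 (day 4 minus day 2 -3.44 on the log2 scale, adjusted p = 1.28e-14). IFI16, a nuclear DNA sensor, fell below the controls, from 149, 156 and 162 CPM to 98.2, 103 and 79.9 CPM (-0.73 ± 0.089).

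The next promoters show an interferon-stimulated gene that was higher than the control and another that was lower, both chosen after their values were seen. IFIT3, which binds viral RNA together with its relatives, was at 17.3, 17.2 and 21.5 CPM and then at 46.7, 37.1 and 37.1 CPM (1.11 ± 0.16). IFITM3, which blocks viral entry at endosomes, was at 61.9, 80.9 and 55.3 CPM and then at 43.9, 38.6 and 40.0 CPM (-0.69 ± 0.12). The lines give the 170 bases before the RefSeq start on the gene's strand, from RefSeq on GRCh38.p14, IFIT3 at chr10:89327827-89327996 (plus strand) and IFITM3 at chr11:320861-321030 (minus strand). Capitals mark GAAA, 2 further bases and GAAA, the core of the interferon-stimulated response element, or its other strand.
IFIT3: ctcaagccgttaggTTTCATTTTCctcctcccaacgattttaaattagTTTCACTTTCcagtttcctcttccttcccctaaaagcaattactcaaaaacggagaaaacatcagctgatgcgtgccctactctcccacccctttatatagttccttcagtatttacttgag
IFITM3: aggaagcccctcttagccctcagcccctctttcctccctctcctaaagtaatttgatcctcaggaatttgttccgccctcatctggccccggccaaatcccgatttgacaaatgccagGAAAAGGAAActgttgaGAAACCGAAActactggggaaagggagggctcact
Both held 2 matches. The letters were in 26 of the 37 listed genes with a promoter (70.3%) against 2.9% of all promoters, in 9 of 13 members that rose (69.2%), 4 of 5 that fell (80%) and 13 of 19 not called (68.4%).

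Sensors of foreign nucleic acid and the interferon regulatory factors gave fewer calls, 10 of 31 tested members higher and 2 lower (4 lower without control replicate 3), with a median of 0.02. MAVS, the mitochondrial adaptor of the RNA sensors, rose from 120.2, 119 and 118 CPM to 169, 175 and 187 CPM (0.57 ± 0.071). IKBKE, a kinase of the same route, rose by 0.76. APOBEC3 genes encode enzymes that deaminate cytosine in viral DNA, and 4 of the 6 tested rose (2 without control replicate 1 or day 4 replicate 1). APOBEC3C went from 68.3, 88.7 and 74.2 CPM to 244, 235 and 247 CPM (1.65 ± 0.086). APOBEC3H went from 0.114, 0.197 and 0.0661 CPM to 2.94, 2.52 and 2.85 CPM (4.39 ± 0.38). APOBEC3B, the nuclear member linked to mutation in tumours, was at 17.7, 20.3 and 17.1 CPM and 23.4, 22.7 and 21.8 CPM (log2 fold change 0.30 ± 0.10, adjusted p = 0.0209), a call lost without control replicate 1, control replicate 3 or day 4 replicate 1. Guanylate-binding proteins, which attack vacuoles of intracellular microbes, were split, with GBP1 and GBP2 lower by 0.83 and 0.74 and GBP3 higher by 0.38 among 4 tested. In antigen presentation 12 of 32 tested members rose and 4 fell. PSME2, the activator that tunes proteasomes for peptides, rose by 0.73, and ULBP1, a stress ligand for natural killer cells, fell from 35.9, 41.4 and 36.9 CPM to 25.2, 23.6 and 21.2 CPM (-0.71 ± 0.10).

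Receptors of the TNF family, which carry death and survival signals, were higher in 10 of 17 tested cases and lower in 3, with a median of 0.62. TNFRSF10B, the death receptor of TRAIL and a p53 target, rose from 156, 139 and 141 CPM to 397, 393 and 351 CPM (1.39 ± 0.079). The decoy receptors of the same ligand, which lack a working death domain, rose as well. TNFRSF10D was at 94.2, 92.7 and 92.9 CPM and then at 243, 247 and 236 CPM (1.38 ± 0.070). TNFRSF10C was at 0.568, 0.788 and 0.793 CPM and then at 8.26, 8.34 and 8.12 CPM (3.52 ± 0.20). FAS, the receptor of FAS ligand, rose from 6.98, 6.63 and 7.33 CPM to 29.5, 29.3 and 28.7 CPM (2.06 ± 0.11). Interleukin receptors went mostly the other way, 12 of 22 tested lower and 2 higher, with a median of -0.51. IL6R, the receptor of interleukin-6, fell from 10.6, 10.3 and 9.38 CPM to 2.60, 2.34 and 3.35 CPM (-1.86 ± 0.17). IL7R, a receptor of lymphocyte development, rose from 59.8, 60.1 and 60.4 CPM to 187, 190.4 and 179.6 CPM (1.63 ± 0.074).

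Apoptosis regulators were higher in 17 of 39 tested cases and lower in 8. Genes of complement and coagulation, C3 included, were higher in 12 of 26 cases and lower in 7. F3, which encodes tissue factor, the trigger of clotting, rose from 220.3, 191 and 219 CPM to 705, 688 and 832 CPM (1.82 ± 0.087). TFPI2, an inhibitor of matrix-bound proteases, went from 12.8, 12.6 and 12.1 CPM to 40.8, 39.2 and 37.5 CPM (1.65 ± 0.097). F2R, the thrombin receptor, rose by 0.95 and F8, clotting factor VIII, by 1.28. Prostanoid synthesis gave 4 rises (22.2%) and 3 falls (16.7%) of 18 tested, near the 18.8% and 17.7% of all genes. PTGIS, which makes prostacyclin, fell from 1.08, 2.30 and 1.59 CPM to 0.113, 0.480 and 0.604 CPM (log2 fold change -2.02 ± 0.45, adjusted p = 8.68e-04).

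Collagens and the enzymes that modify them were higher in 20 of 44 tested cases and lower in 11, with a median of 0.26, and the classes differed. For the microfibrillar collagen VI the 3 chains given here rose, COL6A1 from 363, 425 and 367 CPM to 1377, 1401 and 1420.1 CPM (1.86 ± 0.089). Its partners COL6A2 and COL6A3, taken up after their values were seen, rose by 1.37 and 1.16. COL7A1 (chr3:48564073-48595267), the collagen of anchoring fibrils under epithelia, went from 19.4, 22.3 and 20.7 CPM to 134, 135 and 159.7 CPM (log2 fold change 2.78 ± 0.10, adjusted p = 2.63e-16). COL27A1, a fibrillar collagen of cartilage, rose from 15.4, 16.2 and 15.9 CPM to 41.2, 48.7 and 49.2 CPM (1.55 ± 0.095). P4HA2, which hydroxylates proline in collagen, rose from 108, 112 and 104 CPM to 308, 283 and 327 CPM (1.5 ± 0.077). COL1A1, the main chain of collagen I and a usual mark of fibrosis, was not called, with 2319, 2772 and 2655 CPM in the controls and 2813, 2916 and 2653 CPM at day 4 (log2 fold change 0.11 ± 0.085, adjusted p = 0.317), and the groups overlapped. COL11A1 (chr1:102876467-103108872) fell from 285, 264 and 275 CPM to 75.2, 86.0 and 51.3 CPM (log2 fold change -1.96 ± 0.12, adjusted p = 4.08e-11). SERPINH1, the collagen chaperone HSP47, fell from 184, 224 and 175 CPM to 81.5, 76.6 and 89.2 CPM (-1.24 ± 0.090).

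Matrix glycoproteins and proteoglycans, the linkers between collagen and cells, were higher in 24 of 52 tested cases and lower in 14, with a median of 0.29. LAMA4, a laminin chain of vessels and muscle, rose from 32.2, 26.7 and 24.6 CPM to 88.4, 91.7 and 75.7 CPM (1.61 ± 0.098). FN1, fibronectin and among the most abundant mRNAs here, went from 10116, 8794 and 9949 CPM to 14468, 16484 and 15715 CPM (0.69 ± 0.082). LUM, lumican, a small leucine-rich proteoglycan that organises collagen fibrils, was at 211, 206 and 221 CPM and then at 71.7, 69.9 and 58.3 CPM (-1.68 ± 0.086). DCN, decorin, of the same family, was at 123, 128 and 128 CPM and then at 49.1, 49.3 and 38.8 CPM (-1.47 ± 0.091). Both count among the 15 fibroblast markers, of which 4 of 14 tested rose and 7 fell while their summed level was higher at day 4, and VIM, vimentin, rose from 1946, 2339 and 2114 CPM to 4852, 4471 and 4799 CPM (1.14 ± 0.079). CCN2, the connective tissue growth factor, fell from 1224, 1157 and 1082 CPM to 277, 349 and 285 CPM (-1.93 ± 0.091), and CCN1, its relative, fell by 1.07 from 2559, 2526 and 2337 CPM.

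Matrix proteases and their inhibitors were higher in 23 of 44 tested cases and lower in 7, with a median of 0.32. PLAT (chr8:42175233-42207724), tissue plasminogen activator, rose from 256, 232 and 229.9 CPM to 1063, 1107 and 1429 CPM (log2 fold change 2.32 ± 0.097, adjusted p = 1.80e-15). MMP14, a membrane-bound collagenase, rose from 112, 115 and 103 CPM to 400.2, 407 and 421 CPM (1.89 ± 0.074). PAPPA, which frees IGF by cutting its binding proteins, rose from 48.4, 38.5 and 45.1 CPM to 166, 181 and 168 CPM (1.96 ± 0.092). MMP1, the interstitial collagenase taken up after its values were seen, was at 0, 0.0657 and 0 CPM and then at 0.792, 1.14 and 2.20 CPM (adjusted p = 1.67e-06), levels too low in the controls for a fold change to be given. The AP-1 letters TGACTCA were in 1 of 26 promoters of this list (3.85%) and in 3.47% of all.

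Enzymes that build and edit glycosaminoglycans, the sugar chains of proteoglycans, were higher in 21 of 46 tested cases and lower in 9. HAS2 (chr8:121612116-121641390), the main synthase of hyaluronan, rose from 45.8, 28.4 and 37.5 CPM to 178, 189 and 225 CPM (log2 fold change 2.40 ± 0.13, adjusted p = 3.62e-12), and its antisense RNA overlaps it. GPC1, a heparan sulfate proteoglycan of the membrane, rose from 24.2, 31.5 and 25.4 CPM to 74.0, 80.9 and 82.1 CPM (1.55 ± 0.10). SULF1, which removes sulfate from heparan chains, fell from 74.1, 74.7 and 82.5 CPM to 22.2, 24.5 and 18.1 CPM (-1.84 ± 0.11). Its near relative SULF2, taken up after its values were seen, moved the other way by 1.98 ± 0.29.

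**Figure D3:**
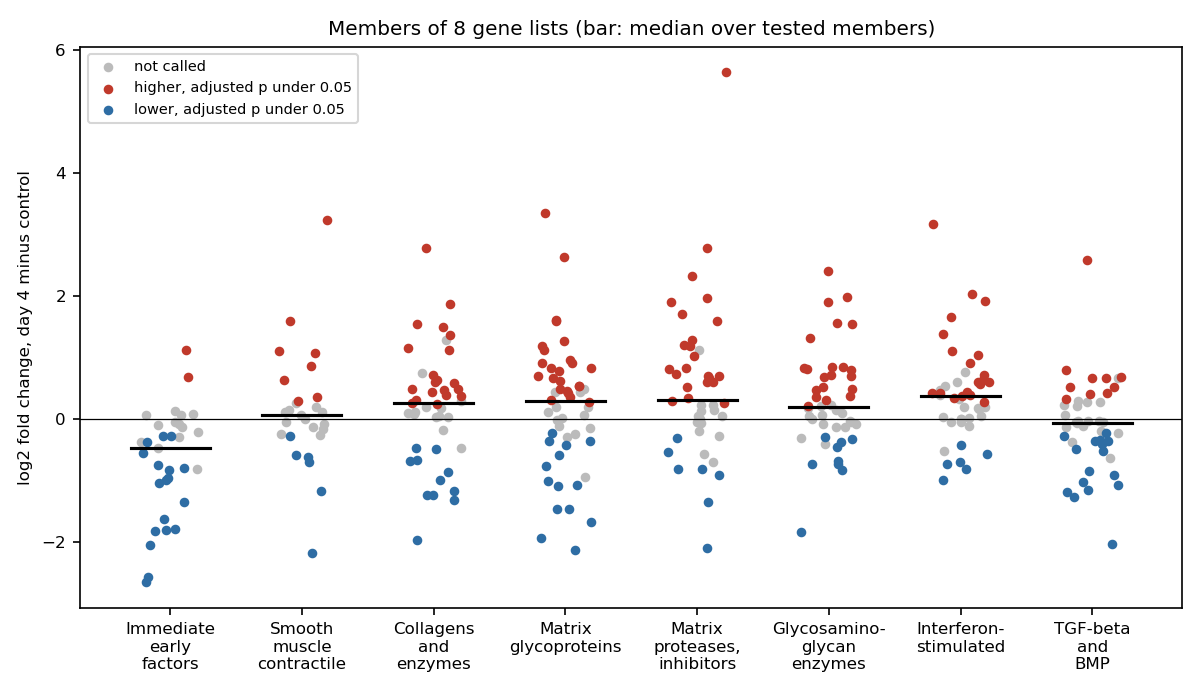
Log2 fold change, day 4 minus control, of every tested member of 8 gene lists, 1 point per gene, red where called higher, blue where called lower and grey where not called; black bars are list medians. Immediate early factors lie mostly below 0 (median -0.47), matrix protease genes mostly above (median 0.32), and TGF-beta genes on both sides.

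Adhesion genes changed in both directions. Of integrins and focal adhesion genes 12 of 32 tested rose and 8 fell. ITGA3, which binds laminin-332, rose from 175, 198 and 171 CPM to 371, 368 and 390.2 CPM (1.05 ± 0.077). TENM2, a teneurin of cell contacts, fell by 1.02. Cadherins and junction proteins gave 11 rises and 11 falls of 40 tested. CDH10, a cadherin of neurons, rose from 0.852, 0.985 and 0.528 CPM to 8.82, 9.36 and 9.33 CPM (3.52 ± 0.21). CLDN1, a claudin of tight junctions, rose from 8.17, 6.50 and 5.68 CPM to 27.0, 30.7 and 21.2 CPM (1.94 ± 0.14). OCLN, occludin of the same junctions, fell from 21.7, 19.4 and 18.4 CPM to 7.07, 6.54 and 5.98 CPM (-1.60 ± 0.14). CDH1, E-cadherin, fell from 3.92, 5.58 and 4.82 CPM to 1.58, 0.540 and 1.43 CPM (-1.99 ± 0.27), and SNAI1, a repressor of CDH1, fell by 1.27. Keratins, the filaments of epithelia, rose in 5 of 11 tested cases and fell in 3 (1 without day 4 replicate 1). KRT19 went from 5.85, 5.58 and 4.76 CPM to 15.5, 15.96 and 24.4 CPM (1.79 ± 0.17), next to summed epithelial markers whose ranges overlap between the groups. S100 proteins, small calcium-binding proteins, rose in 6 of 11 cases and fell in 1 (0 without control replicate 1, control replicate 3 or day 4 replicate 2), and S100A16 rose from 46.8, 58.0 and 46.9 CPM to 98.5, 95.4 and 128 CPM (1.09 ± 0.11). Tetraspanins, scaffolds of the cell membrane, rose in 8 of 17 cases and fell in 2.

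The cytoskeleton outside mitosis was mixed as well. Tubulins and microtubule proteins gave 9 rises and 10 falls of 32. TUBB2B, a beta tubulin of neurons, fell from 21.5, 24.7 and 19.2 CPM to 6.50, 7.14 and 7.36 CPM (-1.64 ± 0.13). MAP2, which steadies microtubules in dendrites, fell by 1.75.

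Growth factors and their receptors moved in both directions. In the joint list of EGF receptor family members and their ligands 5 of 14 tested members rose and 4 fell. The 4 falls became 1 to 2 under 10 of the 20 alternatives, among them leaving out control replicate 2, control replicate 3 or any day 4 replicate. NRG1, the ligand of ERBB3, rose from 42.1, 38.9 and 44.5 CPM to 107, 108 and 128 CPM (1.45 ± 0.086), while ERBB3 itself fell. AREG, amphiregulin, rose from 1.48, 0.591 and 0.925 CPM to 2.94, 2.64 and 4.89 CPM (1.78 ± 0.29). In the PDGF, VEGF, FGF and IGF group 17 of 43 rose and 13 fell. IGFBP7, a secreted IGF-binding protein linked to senescence, rose from 71.5, 86.3 and 73.3 CPM to 208, 199.6 and 213 CPM (1.43 ± 0.087). IGFBP3, the main carrier of IGF in blood, rose from 116, 123 and 104 CPM to 273, 236 and 333 CPM (1.30 ± 0.10). PDGFRB, the receptor of PDGFD, fell from 56.5, 56.1 and 63.3 CPM to 25.8, 29.3 and 27.3 CPM (-1.09 ± 0.092). VEGFC, a growth factor of lymph vessels, rose by 1.03.

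TGF-beta and BMP genes were higher in 10 of 45 tested cases and lower in 16. INHBA, the subunit of activin A, rose from 47.1, 40.6 and 42.6 CPM to 260.4, 248 and 272 CPM (log2 fold change 2.58 ± 0.090, adjusted p = 8.90e-17). TGFB2, a TGF-beta ligand, fell from 217, 168 and 206 CPM to 80.4, 105 and 76.1 CPM (-1.18 ± 0.11). TGFBR1, the type I receptor, fell by 0.90, and ID2, a BMP target that blocks differentiation factors, by 1.14. Hedgehog and Hippo targets fell in 17 of 42 cases and rose in 8 (5 without day 4 replicate 2). CCN2 and CCN1, given above, were among the falls, and AJUBA, a LIM protein that restrains the Hippo kinases, fell by 0.92. In the Notch group 6 of 26 rose (23.1%) and 5 fell (19.2%), near the 18.8% and 17.7% of all genes. JAG1, a Notch ligand, rose from 12.5, 11.6 and 16.8 CPM to 29.4, 31.6 and 35.0 CPM (1.23 ± 0.12) while HES1 fell. Wnt genes rose in 10 and fell in 10 of 36 cases. LGR5, the receptor that marks intestinal stem cells, fell from 25.1, 22.7 and 25.1 CPM to 8.09, 8.70 and 8.01 CPM (-1.55 ± 0.14). WNT5B, a ligand of the noncanonical route, rose by 1.02.

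Guidance cues of the semaphorin, ephrin and slit families gave 14 rises and 14 falls of 44. SEMA7A, a membrane-anchored semaphorin, rose from 25.1, 26.3 and 22.9 CPM to 70.9, 83.3 and 87.0 CPM (1.70 ± 0.10). Feedback regulators of Ras and MAP kinases rose in 12 and fell in 15 of 37 cases. RGS4, which switches off G proteins, rose from 98.8, 82.7 and 87.7 CPM to 302, 314 and 377 CPM (1.88 ± 0.11), and DUSP4, a nuclear MAP kinase phosphatase, by 1.49. ETS, SOX and FOX factors rose in 11 and fell in 7 of 41. EHF, an epithelial ETS factor, had 0 counts in the 3 controls and levels of 2.21, 3.48 and 2.20 CPM at day 4. SOX9, a factor of cartilage and of fetal development, rose from 9.65, 7.62 and 10.4 CPM to 21.1, 22.3 and 22.4 CPM (1.24 ± 0.12). Clock genes rose in 6 and fell in 8 of 23 cases, and PER3, a repressor of the clock, fell by 0.85. Among HOX genes 5 of 29 fell (3 without control replicate 2 or day 4 replicate 1) and 3 rose (0 without control replicate 1).

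The list of sarcomere and natriuretic genes was thinly expressed. Of its 31 genes 9 were tested, 2 rose and 0 fell (1 fell without day 4 replicate 3). ACTN2 rose from 3 counts over the controls to 24 at day 4 (log2 fold change 2.73 ± 0.72, adjusted p = 0.00414). ANKRD1, an ankyrin repeat protein induced by strain in heart muscle, went from 5.45, 8.41 and 7.07 CPM to 12.1, 12.3 and 18.2 CPM (log2 fold change 1.04 ± 0.22, adjusted p = 0.00142). NPPB, the gene of B-type natriuretic peptide, was at 0.908, 0.722 and 0.925 CPM and 0.905, 0.600 and 2.36 CPM (log2 fold change 0.61 ± 0.40, adjusted p = 0.255), with overlapping groups. Cardiac transcription factors gave 4 rises (2 without day 4 replicate 3) and 3 falls of 20. These shares of 20% and 15% lie near the 18.8% and 17.7% of all genes. GATA4, a factor of heart development, was not called at 5.39, 6.24 and 5.48 CPM and 6.56, 7.02 and 6.09 CPM (log2 fold change 0.20 ± 0.15, adjusted p = 0.310). TBX2, a repressor in the forming heart chambers, rose from 4.14, 5.38 and 4.62 CPM to 13.97, 15.5 and 16.7 CPM (1.71 ± 0.15), and GATA6 fell by 0.65.

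In calcium handling 12 of 48 tested members rose and 8 fell (13 with library totals). These shares were 25% and 16.7%, against 18.8% and 17.7% of all genes. RCAN1, the inhibitor of calcineurin, fell from 535, 479.8 and 463 CPM to 144, 148 and 156 CPM (log2 fold change -1.72 ± 0.078, adjusted p = 8.24e-15). ORAI3, a store-operated calcium channel, rose by 1.28. Potassium and sodium channels rose in 8 cases of 33 (5 in the compared groups alone) and fell in 11 (7 without day 4 replicate 1). KCNE4, an accessory subunit that damps potassium currents, fell from 38.1, 35.9 and 32.1 CPM to 11.9, 9.06 and 9.003 CPM (-1.82 ± 0.12). In cyclic nucleotide signalling 6 of 35 rose and 11 fell, and NPR3, the clearance receptor of natriuretic peptides, fell by 0.67.

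NRF2 and glutathione genes, the defence against oxidants, fell in 19 of 47 cases and rose in 8. TXNRD1, which recharges thioredoxin, fell from 782, 689 and 823 CPM to 416, 423 and 429 CPM (-0.85 ± 0.081). NQO1, a quinone reductase, fell from 132, 131 and 124 CPM to 54.3, 57.1 and 55.1 CPM (-1.22 ± 0.082). GSTO1, an omega-class glutathione transferase, went against the group by 1.16 ± 0.092. Aldo-keto reductases and aldehyde dehydrogenases rose in 7 and fell in 8 of 23. AKR1C1, a near copy of AKR1C3 with which reads may be exchanged, fell by 1.17. AKR1B1, aldose reductase, rose from 157, 151 and 155 CPM to 244, 239.6 and 309 CPM (0.78 ± 0.089). Iron and ferroptosis genes rose in 11 and fell in 6 of 33. FDXR, ferredoxin reductase and a p53 target, rose from 12.7, 15.9 and 11.8 CPM to 55.8, 56.6 and 51.5 CPM (2.02 ± 0.11). ACSL3, which activates fatty acids for membranes that resist lipid oxidation, fell from 462, 392.5 and 445 CPM to 247, 259.9 and 219.8 CPM (-0.84 ± 0.082).

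In protein folding and breakdown rises outnumbered falls in the endoplasmic reticulum, the proteasome and the lysosome. Folding and degradation genes of the endoplasmic reticulum were higher in 22 of 45 cases and lower in 3, with a median of 0.27 and 0 rises of 2-fold or more. P4HB, a disulfide isomerase, rose from 522, 624 and 527 CPM to 876, 844 and 903 CPM (0.65 ± 0.080). CALR, a calcium-binding chaperone, rose from 567, 706 and 648 CPM to 1036, 955 and 1048 CPM (0.66 ± 0.083). HERPUD1, which helps to clear misfolded proteins, fell from 189, 180.4 and 169.7 CPM to 70.2, 74.2 and 67.1 CPM (-1.35 ± 0.083), and XBP1, a factor of the unfolded protein response, by 0.64. Proteasome genes were higher in 18 of 43 cases and lower in 1 (0 without control replicate 2, day 4 replicate 2 or day 4 replicate 3), with a median of 0.18, and PSMD2 of the regulatory cap rose from 313, 339 and 345 CPM to 589.7, 567 and 660.0 CPM (0.87 ± 0.083). Cytosolic chaperones were lower in 14 of 51 and higher in 8 (5 without control replicate 1 or day 4 replicate 3). HSPA4L, a member of the HSP110 family, rose from 20.5, 18.6 and 19.0 CPM to 52.9, 64.9 and 46.7 CPM (1.5 ± 0.11).

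Lysosome genes were higher in 26 of 58 cases and lower in 8, with a median of 0.22. GM2A, which presents gangliosides to their enzymes, rose from 26.1, 26.7 and 25.3 CPM to 88.8, 86.3 and 86.3 CPM (log2 fold change 1.74 ± 0.084, adjusted p = 2.42e-14). FUCA1, the fucosidase that p53 induces, rose from 4.20, 3.41 and 2.91 CPM to 20.98, 20.7 and 21.1 CPM (2.57 ± 0.14). CTSS, a cathepsin of antigen-presenting cells, rose from 1.08, 1.84 and 1.32 CPM to 8.71, 10.3 and 9.99 CPM (2.78 ± 0.20), beside the leukocyte markers given above, of which CD68 rose and CD14 fell, and their part was not tested. CTSB, a cathepsin of most tissues, rose from 251, 283 and 240.0 CPM to 419.9, 412 and 426 CPM (0.70 ± 0.075). Of 49 autophagy genes 21 rose and 8 fell (5 without any 1 of the day 4 replicates, and 4 without a low-count filter). DRAM1, a lysosomal protein that links p53 to autophagy, rose from 194, 194 and 179 CPM to 334, 329 and 312 CPM (0.78 ± 0.072). BNIP3, a receptor for mitophagy, rose from 206, 214 and 231 CPM to 378, 336 and 467 CPM (0.86 ± 0.093).

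Energy metabolism shifted by small amounts. Glycolysis and hypoxia genes were higher in 22 of 38 cases and lower in 4 (2 without control replicate 1, control replicate 3 or day 4 replicate 1), with a median of 0.31. PDK1, which closes pyruvate dehydrogenase, rose from 69.1, 57.1 and 75.7 CPM to 114, 119.7 and 132 CPM (0.86 ± 0.10). SLC2A3, the glucose transporter GLUT3, fell from 265, 265 and 250.3 CPM to 127, 123 and 124 CPM (-1.06 ± 0.081). Citrate cycle genes fell in 12 of 34 cases and rose in 6. IDH1, the cytosolic isocitrate dehydrogenase, fell from 93.1, 89.2 and 97.9 CPM to 51.6, 55.3 and 47.6 CPM (-0.86 ± 0.081). IDH3G, a subunit of the mitochondrial enzyme, rose by 0.66, and SSR4, a secretory translocon gene that rose by 0.94, overlaps it on the opposite strand. Fatty acid oxidation rose in 10 of 38 cases and fell in 3 (5 without control replicate 3), and ACADVL, which takes up long chains, rose by 0.64. For glycerolipids and sphingolipids 11 of 50 rose and 5 fell (9 without control replicate 2). ACER2, an alkaline ceramidase that p53 induces, rose from 4.598, 3.15 and 4.10 CPM to 16.7, 17.7 and 16.7 CPM (2.10 ± 0.15). MGLL, which splits monoglycerides, rose from 71.9, 77.9 and 66.8 CPM to 175, 174 and 194 CPM (1.33 ± 0.082).

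Nuclear genes of the respiratory chain were higher in 25 of 71 cases and lower in 0, with a median of 0.19, and no member rose by 2-fold or more. The count of rises was 16 without control replicate 1, and 1 member fell without day 4 replicate 3. It was 39 without the 2 libraries whose mitochondrial share stood apart, control replicate 2 and a day 2 library. NDUFV3, a subunit of complex I, rose from 25.6, 30.1 and 25.7 CPM to 47.9, 44.6 and 45.9 CPM (0.77 ± 0.092). Of the 13 genes encoded by mitochondria 5 rose and 0 fell. That count of rises was 2 without control replicate 1, control replicate 3, day 4 replicate 1 or day 4 replicate 2, and 3 without day 4 replicate 3, without replicate 2 of the longest exposure or with library totals. It was 8 without control replicate 2, 9 without day 2 replicate 3 and 12 without both. MT-CO1, of cytochrome oxidase, was at 10053, 13274 and 11613 CPM and 16699, 16395 and 17156 CPM (log2 fold change 0.52 ± 0.10, adjusted p = 2.91e-04), with the highest control value in the library with the high mitochondrial share. Ribosomal protein genes of the mitochondrion were higher in 14 of 78 cases (7 without day 4 replicate 3, 8 without day 4 replicate 1, 9 without control replicate 1 or 3) and lower in 6 (2 without day 4 replicate 2, 3 without day 4 replicate 3).

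In the machinery of protein and ribosome synthesis falls outnumbered rises for synthetases, biogenesis and splicing factors. Cytosolic tRNA synthetases, which load tRNAs with amino acids, fell in 13 of 23 cases and rose in 2 (1 without control replicate 1, and 4 without control replicate 2 and day 2 replicate 3), with a median of -0.46. AARS1, for alanine, fell from 554, 647 and 527 CPM to 252, 247 and 235 CPM (log2 fold change -1.24 ± 0.080, adjusted p = 6.19e-12). GARS1, for glycine, fell from 479.8, 536 and 489.8 CPM to 247, 226 and 236 CPM (-1.08 ± 0.078). Ribosome biogenesis genes fell in 26 of 55 cases and rose in 0, with a median of -0.20. MYC, the transcription factor that drives ribosome production, fell from 128, 144 and 123 CPM to 46.3, 47.6 and 56.2 CPM (-1.40 ± 0.11). FBL, which methylates ribosomal RNA, fell from 70.4, 89.4 and 71.7 CPM to 45.5, 42.2 and 47.3 CPM (-0.78 ± 0.094). The cytosolic ribosomal proteins themselves were called in few cases, 5 of 78 higher and 5 lower, with a median of -0.01. These counts rest on single libraries: 20 rose and 1 fell without control replicate 2, 3 rose without control replicate 1 and 2 without control replicate 3 or day 4 replicate 1, and 2 fell without day 4 replicate 2 and 3 without day 4 replicate 3. Splicing factors fell in 28 of 67 cases and rose in 4 (7 without control replicate 2, and 2 without control replicate 1, day 4 replicate 2 or day 4 replicate 3), with a median of -0.18. TRA2B, a regulator of exon choice, fell from 254, 233 and 259.5 CPM to 167, 171 and 167 CPM (-0.56 ± 0.072), and CELF2, a splicing factor of brain and muscle, rose by 1.73. Ubiquitin proteases fell in 18 of 49 cases (11 without control replicate 1) and rose in 6 (3 without day 4 replicate 1), and USP1, which acts in DNA crosslink repair, fell by 0.56.

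Of 222 tested solute carriers 47 rose (21.2%) and 54 fell (24.3%), against 18.8% and 17.7% of all genes. Of 453 ZNF zinc finger genes 75 rose (16.6%) and 43 fell (9.49%), and 28 fell without day 4 replicate 3. Serpins rose in 7 of 17 cases and fell in 2. SERPINB7, an intracellular serpin of skin, rose from 11.9, 12.5 and 15.5 CPM to 57.0, 56.1 and 60.2 CPM (2.12 ± 0.12). A pair of peptidylarginine deiminases, which turn arginine into citrulline in proteins, rose from near 0. PADI4 was at 0.0568, 0.0657 and 0.132 CPM and then at 3.28, 3.36 and 3.13 CPM (5.17 ± 0.37). PADI3 was at 0.114, 0 and 0.264 CPM and then at 2.54, 1.4998 and 1.76 CPM (3.88 ± 0.45). CYP24A1, which inactivates vitamin D, fell from 30.8, 24.4 and 25.6 CPM to 7.01, 8.64 and 6.75 CPM (-1.86 ± 0.14).

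Among non-coding genes, LINC RNAs were higher in 70 of 266 tested cases and lower in 30, antisense RNAs in 90 and 52 of 595, and host genes of small nucleolar RNAs in 2 and 8 of 25 (0 higher without control replicate 1, control replicate 3 or day 4 replicate 3, and 1 without day 2 replicate 3 or any replicate of the longest exposure). LINC02052 had 0 counts in the controls and 4.35, 4.08 and 2.85 CPM at day 4, and the antisense gene LINC02051 overlaps it. LINC00973 rose from 0.965, 0.657 and 0.595 CPM to 6.39, 9.12 and 6.70 CPM (3.29 ± 0.27). NAV2-AS6 rose from 0.624, 1.90 and 1.32 CPM to 12.2, 9.60 and 11.3 CPM (3.13 ± 0.24). SLC8A1-AS1, opposite the sodium-calcium exchanger gene SLC8A1, rose from 2.10, 3.02 and 2.18 CPM to 18.9, 20.04 and 18.2 CPM (2.97 ± 0.15). LURAP1L-AS1 fell from 9.03, 7.95 and 9.18 CPM to 2.15, 2.76 and 2.03 CPM (-1.92 ± 0.20). CFLAR-AS1, opposite the caspase 8 regulator CFLAR, fell from 5.85, 6.50 and 5.75 CPM to 1.81, 2.28 and 1.92 CPM (-1.59 ± 0.19).

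Host genes of microRNAs were higher in 6 of 34 tested cases and lower in 11 (7 without day 4 replicate 1). MIR3142HG (chr5:160438594-160487426), the transcript that carries miR-146a, rose from 0.511, 0.131 and 0.264 CPM to 18.8, 13.5 and 11.6 CPM (log2 fold change 5.52 ± 0.29, adjusted p = 1.19e-13). MIR34AHG (chr1:9148011-9198906), the p53-induced host of miR-34a, rose from 4.43, 2.63 and 2.91 CPM to 19.3, 16.8 and 20.97 CPM (log2 fold change 2.50 ± 0.17, adjusted p = 1.34e-11). MIR137HG, the host of miR-137, rose from 10.3, 7.22 and 9.18 CPM to 19.3, 18.5 and 22.7 CPM (1.18 ± 0.13). MIR503HG, which carries miR-503, fell from 6.47, 6.70 and 8.72 CPM to 2.32, 2.34 and 2.36 CPM (-1.64 ± 0.21). MIR17HG, the host of the miR-17 cluster that MYC induces, taken up after its values were seen, fell from 2.44, 2.89 and 2.05 CPM to 0.961, 0.360 and 0.659 CPM (-1.88 ± 0.35). A mature microRNA of RefSeq (GRCh38.p14) was found in 32 of the 34 hosts, with 101 entries in all. Some entries are the same mature sequence at more than 1 place, such as miR-125b-5p in MIR100HG and MIR99AHG. Hosts on 1 chromosome were left out of the search, so the remaining hosts are not shown to lack a microRNA. Of the mature sequences these 5 hosts carry 6 are shown, at least 1 from each, 5′ to 3′ with the seed (bases 2 to 8) in capitals, since the seed sets which mRNAs a microRNA can pair with.
hsa-miR-146a-5p: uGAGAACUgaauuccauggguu
hsa-miR-34a-5p: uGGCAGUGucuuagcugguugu
hsa-miR-137-3p: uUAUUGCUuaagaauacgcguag
hsa-miR-503-5p: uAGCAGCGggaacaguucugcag
hsa-miR-17-5p: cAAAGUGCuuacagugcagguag
hsa-miR-20a-5p: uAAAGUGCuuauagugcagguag
miR-17-5p and miR-20a-5p of MIR17HG have the same seed, and the other 4 seeds differ from it and from each other. The mature microRNAs were not measured here, and a host's level need not follow them.

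Genes at an extreme after 4 days were found by comparing day 4 with each other group, at an adjusted p under 0.05 in all 3 comparisons. They numbered 48 higher (0.277% of all genes) and 40 lower (0.231%). Against day 2 alone 2828 genes (16.3%) were higher at day 4 and 3203 (18.5%) lower (3842 and 2443 with library totals), and against the longest exposure 646 (3.73%) were higher and 528 (3.05%) lower. The 3 comparisons share the day 4 libraries. Genes named from these sets were picked by these differences, so their separation from the other groups is no finding. The counts of extremes ranged from 21 to 88 higher and from 19 to 69 lower with 1 library left out. The number higher was 88 without control replicate 2, 28 without day 2 replicate 2, 22 and 21 without day 4 replicates 1 and 3, and 24, 21 and 29 without replicates 1, 2 and 3 of the longest exposure. The number lower was 69 without control replicate 2, 19 and 26 without day 4 replicates 1 and 3, and 21 without replicate 2 of the longest exposure.

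ESM1 was at 7.21, 4.59 and 5.34 CPM at day 2 and at 29.8, 26.3 and 23.6 CPM at the longest exposure, beside the day 4 libraries given above. PLAT had 443, 416 and 445 CPM at day 2 and 784, 694 and 767 CPM at the longest exposure. Metallothioneins, small proteins that bind zinc and copper, had 2 members among the genes highest at day 4. In the joint list of metallothioneins and zinc genes 4 of 21 tested members rose (19%), near the 18.8% of all genes. Falls numbered 2 (9.52%, against 17.7% of all genes), and 0 without control replicate 1 or day 4 replicate 3. They numbered 1 without control replicate 3, day 2 replicate 1 or 2, day 4 replicate 1 or 2, or replicate 1 or 2 of the longest exposure. MT2A (chr16:56608199-56609497) was at 51.9, 67.2 and 53.7 CPM in the controls, 109, 92.0 and 65.0 at day 2, 277, 274 and 307 at day 4 and 131, 134 and 150.2 at the longest exposure. MT1X, a near copy whose reads may be shared, was at 3.07, 6.30 and 3.77 CPM in the controls, 12.2, 11.1 and 7.33 at day 2, 16.9, 13.7 and 14.7 at day 4 and 7.98, 7.58 and 10.3 at the longest exposure. For both the 3 day 4 libraries were above all 9 others, which the choice of genes by these differences favours. TFAP2C, an AP-2 factor of trophoblast and skin, was at 17.9, 20.6 and 20.5 CPM in the controls, 22.1, 15.7 and 18.6 at day 2, 37.2, 36.0 and 44.5 at day 4 and 27.2, 24.0 and 25.7 at the longest exposure. FOSL1 was at 116, 142 and 101 CPM in the controls, 121, 124 and 104 at day 2, 189, 189.7 and 198 at day 4 and 135, 124 and 155 at the longest exposure.

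On the low side, PDGFD was at 7.31, 7.05 and 7.93 CPM at day 2 and 3.41, 3.43 and 4.58 CPM at the longest exposure. INPP4B, a phosphatase that limits AKT signalling, was at 20.9, 16.2 and 20.9 CPM in the controls, 13.1, 14.4 and 17.6 at day 2, 8.82, 7.86 and 9.72 at day 4 and 14.6, 15.8 and 14.5 at the longest exposure. LURAP1L, a leucine-rich adaptor protein, was at 34.3, 33.5 and 28.0 CPM in the controls, 15.1, 13.8 and 14.1 at day 2, 8.88, 7.62 and 10.05 at day 4 and 12.9, 14.2 and 11.1 at the longest exposure. Its antisense partner by name fell too, as given above. GPR78, an orphan receptor, was at 12.8, 12.1 and 15.9 CPM in the controls, 26.1, 39.6 and 31.8 at day 2, 7.58, 9.12 and 7.47 at day 4 and 12.8, 13.5 and 12.4 at the longest exposure, so that it was highest at day 2 and lowest at day 4. ZNF641, a zinc finger gene, was at 8.80, 8.73 and 8.26 CPM in the controls, 10.7, 11.3 and 11.8 at day 2, 4.64, 4.98 and 5.05 at day 4 and 8.35, 7.52 and 7.73 at the longest exposure.

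**Figure D4:**
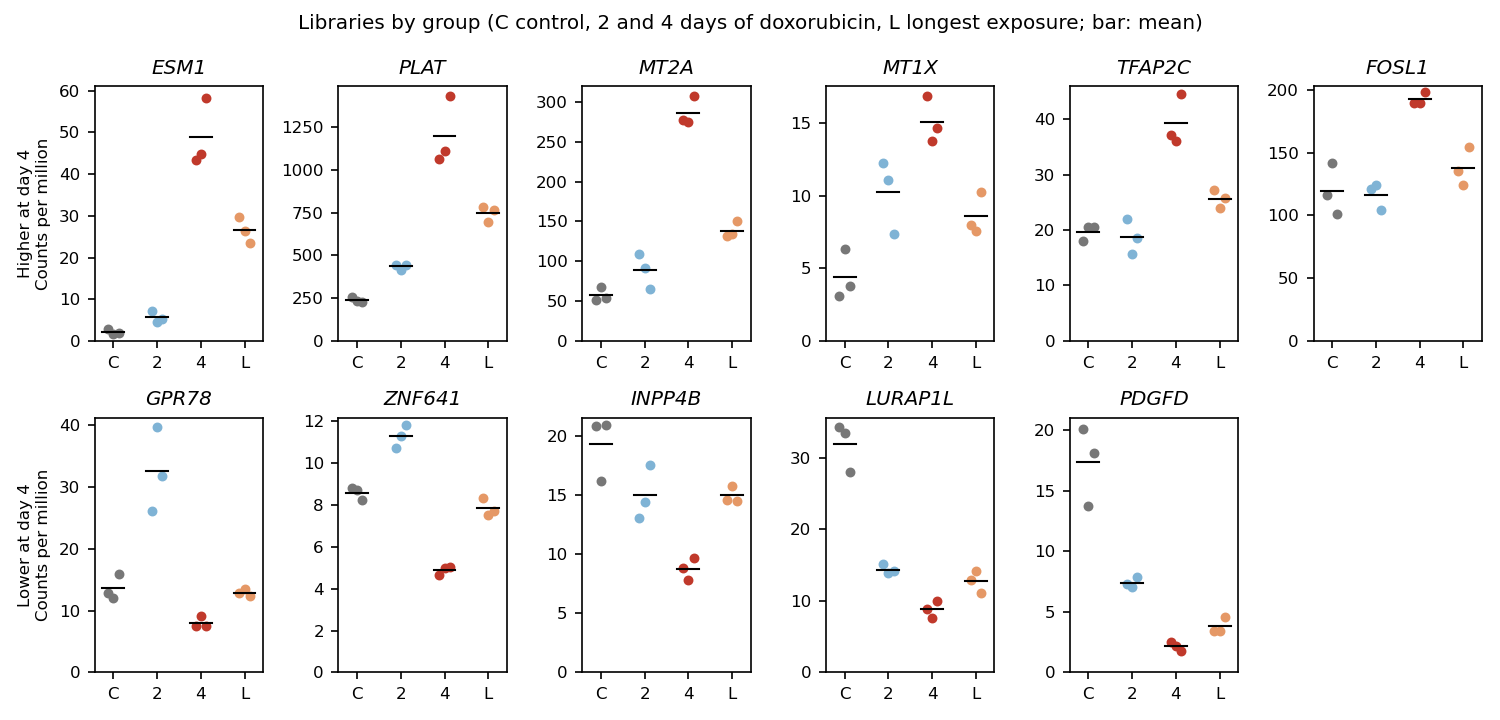
Scaled counts (CPM) in each of the 12 libraries, 1 point per library and bars at group means, for 6 genes higher at day 4 than in each other group (top) and 5 that were lower (bottom); C is control, 2 and 4 the days of exposure and L the longest exposure. The day 4 points of MT2A and ESM1 lie above every other point, and those of INPP4B and ZNF641 below. The genes were picked by these differences.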

How the data were processed

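The deposited table holds counts of reads per gene that the authors made, and the submitters' processing notes name fastp 0.23.2, Trimmomatic 0.38, STAR 2.7.8, HTSeq 0.13.5 and GRCh38.p13 with no roles. Per the labels' protocols, the library kit was NEBNext Ultra RNA. All 12 libraries, 3 a group, were fitted together in edgeR 4.0.16 (R 4.3.3, limma 3.58.1) with TMM scaling and the quasi-likelihood test, after filterByExpr (minimum count 10, minimum total 15) had left 17320 of 60607 genes, and Benjamini-Hochberg adjusted p-values under 0.05 were calls. Levels are CPM, gene counts over the TMM-scaled library size. SE is the absolute log2 fold change divided by the square root of F. Adjusted p-values in the text are from this fit. Genes were named by size of change among called genes whose groups do not overlap, with an ordinary symbol (no clone, open reading frame, LINC, antisense or host-gene name) and outside the cytokine, cholesterol and ATF4 lists. Named were the 12 largest each way where the higher group averages 10 CPM or more and 5 each way with 100 CPM in it. Up to 4 were named in each of the other lists (69 lists in all, with those left aside) and 3 in each of 28 families. Also named were 6 each way among day 4 extremes, 3 non-coding genes each way, and a panel of 12 named whether changed or not. Members and lists were chosen with earlier results of these data known. Same-numbered replicates did not deviate together, so they were not paired. Alternatives were other scalings and filters, DESeq2 1.42.0, a replicate block, the compared groups alone, each library left out, and 2 libraries left out together, chosen after seeing the data. The test was tested on simulated data. Gene positions are from GENCODE 29 (GRCh38), sequences from RefSeq. Some genes that these rules name are not reported here.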

Additional observations from a re-analysis of the deposited data

Results flagged for a closer look

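The genes flagged here differed between exposure times: at day 4 each was above, or below, every other group of libraries at an adjusted p under 0.05 in edgeR's quasi-likelihood test with Benjamini-Hochberg adjustment, and the value is the smallest of the 3 log2 differences. On the high side, day 4 exceeded the nearest other group by 0.8824 for ESM1, 0.6814 for PLAT, 1.047 for MT2A, 0.5578 for MT1X, 0.615 for TFAP2C and 0.4785 for FOSL1. On the low side, the nearest group was above day 4, with a difference of -0.8341 for PDGFD, -0.7658 for INPP4B, -0.6837 for ZNF641, -0.6794 for GPR78 and -0.5188 for LURAP1L. No group of 4 or more libraries exists here, so single libraries were not tested as outliers.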

How the results depend on the processing

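Against control, day 4 gave 3249 higher and 3072 lower genes. With other scalings, filters and tools these became 3270 and 3051 with DESeq2's size factors, 2913 and 3458 with library totals, 3140 and 2859 of 42079 genes without a filter, 3066 and 3076 of 15218 with a filter of 1 CPM, 3177 and 2956 in DESeq2, and 2777 and 2779 of 16112 in the compared groups alone. Leaving out 1 library gave 2773 to 3304 and 2554 to 3084. With a replicate block the counts were 3119 and 2916. Numbers do not pair the samples: the deviations of same-numbered libraries correlated at -0.0593, -0.171 and 0.00173 for replicates 1, 2 and 3, and not every library correlated best with its own number.

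Of 194 counts over gene lists and families, 48 moved by over 1.5 times with at least 1 library left out and 28 under at least 1 other setting. Among counts over all genes, library totals gave 29 genes higher and 63 lower at day 4 than in each other group (48 and 40 as reported), and 350 higher and 1006 lower than at the longest exposure (646 and 528). Against day 2 they gave 3842 higher and 2443 lower (2828 and 3203). Without control replicate 2 and day 2 replicate 3 the same counts were 79, 68, 1113 and 914. With 1 library left out they ranged over 21 to 88, 19 to 69, 307 to 1009 and 259 to 833. No direction reversed among 353 named genes. With 1 library left out, 9 of them lost the call and 2 gained it under at least 1 setting. Under other settings 3 lost it and 2 gained it. The cause was not tested.

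Limits: with 8 residual degrees of freedom, 3 libraries a group and totals near those given, small changes of low genes were not detectable. The libraries are not stated to be separate cultures.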
